A study of Mus musculus with 7 samples.

Results

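The comparison described here set the pPGK reporter library against the SCP1 reporter library of a CapStarr-seq study in mouse T cells, bin by bin, after each library had been divided by its own input. A bin was a 500 bp stretch of the mm9 genome, and it entered the comparison when at least 50 input reads fell in it in both files. That rule kept 37175 bins, which were 1.67% of the 2227193 bins with a used read in any of the 4 files of the series. The rule used input depth only, so reporter activity played no part in choosing the bins. Taken singly, the pPGK file reached the minimum in 51260 bins and the SCP1 file in 100794, and both counts include the kept bins.

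The pPGK library was the fragment library read out in P5424 cells from a reporter plasmid labelled with the pPGK promoter, with its own sequenced input. Its counterpart was SCP1, the fragment library read out in the same cells from a plasmid labelled with the SCP1 promoter, also with its own input. P5424 is an immature mouse T cell line, so all values come from 1 transformed line. A further 2 libraries served for description only: pPGK_PMA_I, which was divided by the pPGK input, and pR-Ea, which had an input of its own. Every sample's treatment entry lists PMA and ionomycin, whereas only the pPGK_PMA_I title carries a stimulus, and whether the pPGK and SCP1 cells were stimulated is not settled by the labels. Each group was 1 library, so there is no replicate error, no test between the promoters was possible, and no p-value is given.

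In a CapStarr-seq assay, genomic fragments caught with capture probes are cloned into the transcribed part of a reporter plasmid, and a fragment's share of the reporter RNA over its share of the plasmid pool measures how much it raises or lowers transcription from the core promoter. A fragment above its input behaves as an enhancer in that plasmid and a fragment below it as a silencer, and either reading depends on the promoter it is paired with. SCP1, the super core promoter, is a synthetic promoter that joins several strong core motifs, among them a TATA box, an initiator and downstream elements. The PGK promoter comes from the gene for phosphoglycerate kinase, an enzyme of glycolysis made in nearly every cell; it is rich in CpG and lacks a TATA box.

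The 250 bases before the start of mouse Pgk1, the gene after which pPGK is named, show that composition, with each CG dinucleotide in capitals. They are the RefSeq sequence at chrX:106186850-106187099 of GRCm38.p6, plus strand, read 5′ to 3′; the stretch that was cloned into the reporter is not given in the sources used here.
Pgk1 upstream: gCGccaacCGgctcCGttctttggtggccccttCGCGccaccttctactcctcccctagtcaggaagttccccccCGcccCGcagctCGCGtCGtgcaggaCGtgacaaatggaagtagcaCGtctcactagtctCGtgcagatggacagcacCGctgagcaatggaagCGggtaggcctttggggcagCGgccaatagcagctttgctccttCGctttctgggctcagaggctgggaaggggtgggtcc
This stretch held 62.8% G and C and 17 CG dinucleotides, against medians of 52.4% and 6 over the same windows of 32851 mouse promoters, of which 76.5% held fewer CG. The letters TATAAA occurred on neither strand of it, and 12.4% of the promoter windows held them on either strand. No bin sequences are shown, because no genome of the files' mm9 build was used here.

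The pPGK library had 48137015 used reporter reads and 17807985 used input reads, and the SCP1 library had 54992717 and 45278192. Used reads were those at positions with a mapping quality score of at least 30, which were 66.7% of the pPGK reporter reads and 58.9% of the pPGK input reads. Every position in the SCP1 file already scored 30 or more, whereas the pPGK file listed lower ones. Of the 1298870 listed 5′ ends that both files share, 28.1% scored below 30 in the pPGK file. A kept bin had a median of 390 reporter and 154 input reads with pPGK, and 425 and 383 with SCP1. Those reads fell on a median of 34 distinct positions in the pPGK file and 88 in the SCP1 file.

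Activity is the log2 ratio of reporter to input, each per used read of its library and with 1 read added to every count. The median activity was -0.08 with pPGK and -0.12 with SCP1. Activity spread somewhat less with pPGK, where 90% of bins lay between -1.63 and 0.78, than with SCP1, where they lay between -1.73 and 0.95. The highest bin reached a log2 activity of 3.02 with pPGK and 4.002 with SCP1. The difference, pPGK minus SCP1, had a median of -0.03 and ran from -1.10 at the 5th percentile to 1.22 at the 95th. Its median standard error over distinct positions was 0.40; this error treats positions as independent, covers counting and position error only, and says nothing of the spread between cultures.

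A bin was called when the log2 difference was at least 1 in size, that is 2-fold. Activity was higher with pPGK in 2881 bins, 7.75% of all, and lower with pPGK in 2360 bins, 6.35% of all; together 14.1% of bins were called. A 95% interval over positions excluded equality in 2020 of the higher and 1902 of the lower bins. Higher bins thus made up 54.97% of the calls. That majority depended on the processing. When each count was divided by the reads in kept bins instead of all used reads, the median difference moved by 0.23 on the log2 scale, and 4613 bins were higher and 1408 lower, 76.6% higher. Lower calls were the majority in other settings: higher bins made up 32.5% of the calls on the plus strand (1312 higher and 2728 lower), 32.8% on the minus strand (1406 and 2883), 33.2% with at least 200 input reads in both files (300 and 603), 46.0% with a pseudocount of 10 reads (2142 and 2512) and 48.5% in 250 bp bins (3094 and 3280). In 40 of the higher bins the SCP1 reporter had 0 reads, and in 5 of the lower bins the pPGK reporter had 0. With such counts set to a floor of 3 counts per library, 2873 bins were higher and 2362 lower, and the median difference of the called bins was 1.35 for the higher and -1.30 for the lower.

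**Figure D1:**
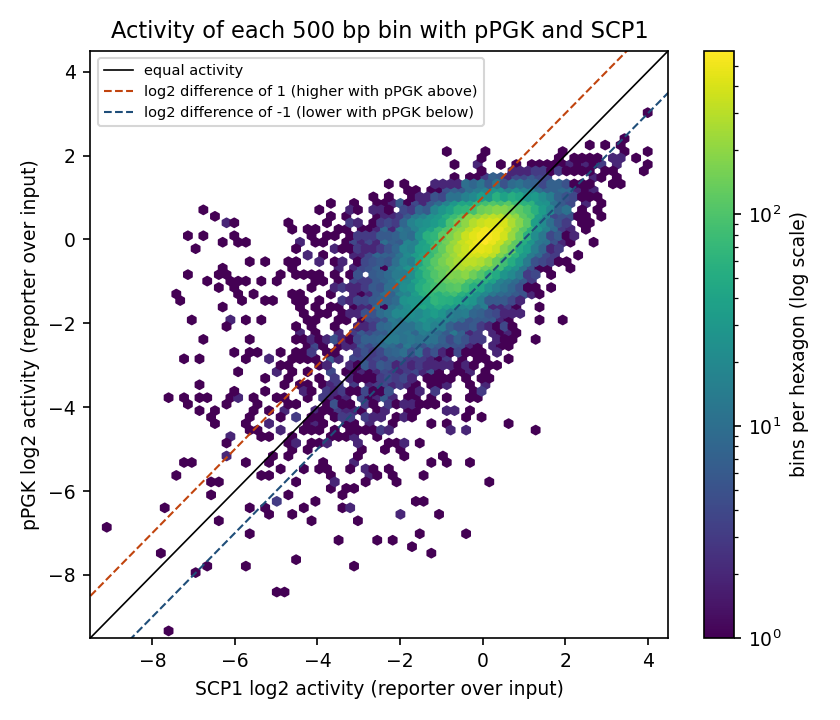
Log2 activity with SCP1 (x axis) against log2 activity with pPGK (y axis) in the 37175 bins, as hexagons coloured by the number of bins on a log scale, with the line of equal activity and dashed lines at a log2 difference of 1 and -1. Most bins form one cloud around 0, and the 2881 higher and 2360 lower bins lie beyond the dashed lines.

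Bins above their input, at a log2 activity of at least 1, were fewer with pPGK: 708 bins (1.9%) passed with pPGK and 1640 (4.41%) with SCP1. Both libraries put 256 bins there, which were 36.2% of the pPGK list and 15.6% of the SCP1 list. Bins below their input, at a log2 activity of -1 or less, numbered 4565 with pPGK (12.3%) and 5421 with SCP1 (14.6%). The libraries shared 2578 of these, 56.5% of the pPGK list and 47.6% of the SCP1 list. In both libraries more bins lay below input than above it. These counts and overlaps hold for scaling to all used reads. Kept bins held 59.9% of the used pPGK reporter reads and 67.4% of the used pPGK input reads. With SCP1 they held 66.6% and 63.9%. Scaling to the reads in kept bins would raise every pPGK activity and lower every SCP1 activity, so these contrasts between the libraries depend on the scaling.

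The bins with higher activity under pPGK were mostly not bins above input. In 1504 of them (52.2%) activity was below input with SCP1 and between the thresholds with pPGK, and in 950 (33.0%) it was between them with both. Another 234 (8.12%) were below input with both. Bins above input with pPGK were few: 176 (6.11%) were between the thresholds with SCP1 and 17 (0.59%) were below input with SCP1. The same classes held 7.60%, 74.5%, 6.93%, 1.17% and 0.0457% of all bins, in that order. Of the 708 bins above input with pPGK, 27.3% were higher, against 7.75% of all bins. The activities that set these classes also set the calls, so the shares are a description. The bins with lower activity were more evenly made up. Of these, 769 (32.6%) were below input with pPGK and between the thresholds with SCP1, 744 (31.5%) were between them with both, and 498 (21.1%) were between them with pPGK and above input with SCP1. A further 295 lower bins (12.5%) were below input with both, 37 (1.57%) were above input with both, and 17 (0.72%) were below input with pPGK and above it with SCP1. In the order given for the lower bins, these classes held 5.30%, 74.5%, 3.68%, 6.93%, 0.689% and 0.0457% of all bins.

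Among the bins above input with SCP1, those with the most input show what a smaller activity under pPGK looks like. At chromosome 11, 23913501 to 23914000, pPGK gave 45413 reporter and 4432 input reads and SCP1 gave 98377 and 7633. Log2 activity there was 1.92 with pPGK and 3.41 with SCP1, a difference of -1.49 ± 0.08 (SE over positions). At chromosome 18, 42683501 to 42684000, log2 activity was 1.83 with pPGK, from 33433 reporter and 3491 input reads, and 2.89 with SCP1, from 94395 and 10521, a difference of -1.06 ± 0.08. Both bins stood above input with either promoter. Their log2 activity with pR-Ea was 0.66 and 0.42. With each position counted once in place of its reads, the differences were -0.96 and -0.25. Scaled to the reads in kept bins, the chromosome 18 difference was -0.83. Those values fall short of the threshold. A count of positions does not grow with more reads at a position already counted. At the chromosome 11 bin, reporter reads lay on 279 of 282 positions with pPGK and on 358 of 364 with SCP1.

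Several other bins above input with both promoters were lower with pPGK. At chromosome 17, 72814001 to 72814500, pPGK gave 27624 reporter and 2958 input reads (log2 activity 1.79) and SCP1 gave 22076 and 1177 (3.95), a difference of -2.16 ± 0.12. At chromosome 12, 70855501 to 70856000, log2 activity was 1.39 with pPGK and 3.41 with SCP1, a difference of -2.03 ± 0.34. At chromosome 5, 140253001 to 140253500, it was 1.30 with pPGK and 3.21 with SCP1, a difference of -1.91 ± 0.36. With each position counted once, that at chromosome 12 was -0.55, short of the threshold. Bins above input to the same degree with both were chosen for their small difference and are given as a description. At chromosome 16, 18812001 to 18812500, log2 activity was 1.20 with pPGK (963 reporter and 154 input reads) and 1.21 with SCP1 (1338 and 475). At chromosome 15, 12048001 to 12048500, it was 1.04 with pPGK and 1.03 with SCP1, and at chromosome 5, 135015501 to 135016000, it was 1.14 with pPGK and 1.15 with SCP1.

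A bin at chromosome 1, 130487501 to 130488000, lay above input with SCP1 and between the thresholds with pPGK. With pPGK it had 2930 reporter and 717 input reads and a log2 activity of 0.60, against 34304 and 4015 reads and 2.81 with SCP1, a difference of -2.22 ± 0.16. Taken by strand, the difference was -2.20 on the plus and -2.22 on the minus strand; a like direction on each was a condition for naming a bin. With each position counted once the difference was -0.55. At chromosome 7, 88275001 to 88275500, log2 activity was -0.84 with pPGK and 1.63 with SCP1, but 84.8% of the pPGK input reads there sat at positions scored below 30, which were not used. At chromosome 11, 59159001 to 59159500, no pPGK input read was at such a position, and log2 activity was -0.55 with pPGK and 2.01 with SCP1.

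Few bins went from one side of input to the other. Of the 17 bins below input with pPGK and above it with SCP1, 3 were selected by the naming rule. At chromosome 15, 102301001 to 102301500, pPGK gave 2736 reporter and 2171 input reads (log2 activity -1.10) and SCP1 gave 12364 and 3272 (1.64), a difference of -2.74 ± 0.45, or -0.92 with each position counted once. At chromosome 4, 128307001 to 128307500, log2 activity was -1.39 with pPGK and 1.19 with SCP1, and 52.3% of the pPGK input reads there were scored below 30. At chromosome 6, 99511501 to 99512000, it was -4.57 with pPGK, from 13 reporter and 122 input reads, and 1.27 with SCP1, from 204 and 69. Log2 activity with pR-Ea was -0.92, -0.87 and -1.25 in these 3 bins. Over the 11 of the 17 bins with at least 50 pR-Ea input reads the median was -0.07, and 2 of the 11 were below input there. The chromosome 6 bin had 42 pR-Ea input reads and is not among the 11.

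In the opposite 17 bins, activity was above input with pPGK and below it with SCP1. At chromosome 11, 115560001 to 115560500, pPGK gave 391 reporter and 64 input reads (log2 activity 1.16) and SCP1 gave 43 and 130 (-1.85), a difference of 3.01 ± 0.59. At chromosome 1, 195208501 to 195209000, log2 activity was 1.02 with pPGK and -2.30 with SCP1, from 388 and 70 reads with pPGK and 15 and 64 with SCP1. At chromosome X, 70917501 to 70918000, it was 1.03 with pPGK and -1.28 with SCP1, a difference of 2.31, or 0.67 with each position counted once. These bins had fewer reads than those above, and the error of their differences was 1.09 and 1.02 in the last pair.

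Among the 939 higher bins that met the conditions for naming, which leave out bins with 0 SCP1 reporter reads, the largest differences rested on very few SCP1 reporter reads. At chromosome 3, 127992501 to 127993000, pPGK gave 100 reporter and 50 input reads (log2 activity -0.45) and SCP1 gave 4 and 200 (-5.61), a difference of 5.16 ± 1.53. At chromosome 15, 19645001 to 19645500, pPGK gave 111 and 58 reads (log2 activity -0.51) and SCP1 gave 2 and 98. The exact 95% counting interval of its SCP1 log2 activity, which covers counting error only, ran from -8.96 to -4.004. At chromosome 6, 146472501 to 146473000, pPGK gave 144 and 102 reads (log2 activity -0.94) and SCP1 gave 1 and 87, with a counting interval from -12.04 to -4.21. Activity with pPGK was near or below input in these bins, not above it.

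In the other 5 of the 8 largest differences among those 939 bins, log2 activity was between -0.99 and 0.59 with pPGK and between -5.30 and -3.67 with SCP1. The best covered of them was at chromosome 8, 122585001 to 122585500, where pPGK gave 263 reporter and 193 input reads and SCP1 gave 15 and 519, a difference of 4.31 ± 1.53. Its log2 activity with pR-Ea was -2.44, against -0.38 to 0.59 in the other 4. Of those 4, the bins starting at chromosome 10, 112259501, chromosome 11, 3710001, and chromosome 2, 5374501, had only 31, 20 and 36 pR-Ea input reads. In them 56.5%, 50.3% and 37.4% of the pPGK input reads were scored below 30. That share was 35.9% in the chromosome 8 bin and 0.0% in the remaining bin, at chromosome 5, 115419001.

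Higher bins with deep input differed much less. At chromosome 9, 11782501 to 11783000, pPGK gave 8738 reporter and 1461 input reads (log2 activity 1.15) and SCP1 gave 5201 and 5083 (-0.25), a difference of 1.39 ± 0.14. Its log2 activity was 1.56 with pPGK_PMA_I and 0.79 with pR-Ea, so SCP1 gave the lowest of the 4 values. At chromosome 1, 172773501 to 172774000, log2 activity was -0.01 with pPGK and -1.11 with SCP1, from 5820 and 2169 reads with pPGK and 5076 and 9010 with SCP1. At chromosome 12, 37392001 to 37392500, it was 0.17 with pPGK and -0.85 with SCP1. At chromosome 5, 112130501 to 112131000, it was 0.04 with pPGK and -0.96 with SCP1, a difference of 1.004 ± 0.16 that sits on the threshold. These differences changed when positions and not reads were counted. With each position counted once in place of its reads, the difference was 0.23 at the chromosome 9 bin, -0.06 at the chromosome 1 bin, -0.29 at the chromosome 12 bin and 0.14 at the chromosome 5 bin.

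Among the 819 lower bins that met the conditions for naming, the largest difference was at chromosome 9, 50897501 to 50898000. There pPGK gave 3 reporter and 192 input reads and SCP1 gave 73 and 77, so log2 activity was -7.03 with pPGK, with a counting interval from -9.73 to -5.87 taken without the added read, and -0.36 with SCP1. At chromosome 8, 48626501 to 48627000, pPGK gave 95 reporter and 861 input reads (log2 activity -4.60) and SCP1 gave 73 and 76 (-0.34), a difference of -4.26 ± 0.45. At chromosome 17, 25515501 to 25516000, pPGK gave 611 and 1214 reads (log2 activity -2.42) and SCP1 gave 1697 and 814 (0.78), a difference of -3.20 ± 0.55. The bin on chromosome 17 stood at -2.92 with pR-Ea, so of pPGK, pR-Ea and SCP1 only SCP1 had a log2 activity over 0 there.

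Bins below input with both promoters also differed in how far below input they lay. At chromosome 6, 87579001 to 87579500, pPGK gave 2856 reporter and 6413 input reads (log2 activity -2.60) and SCP1 gave 6039 and 11524 (-1.21), a difference of -1.39 ± 0.08. At chromosome 1, 82997001 to 82997500, log2 activity was -3.22 with pPGK and -2.11 with SCP1, a difference of -1.11 ± 0.12. Both bins were also below input with pR-Ea, at -2.12 and -2.75. With each position counted once the differences were -0.91 and -0.45, and scaled to the reads in kept bins that at chromosome 1 was -0.88. In the other direction, a bin at chromosome 19, 30288501 to 30289000, had a log2 activity of -1.45 with pPGK and -5.21 with SCP1, from 255 and 257 reads with pPGK and 11 and 364 with SCP1.

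**Figure D2:**
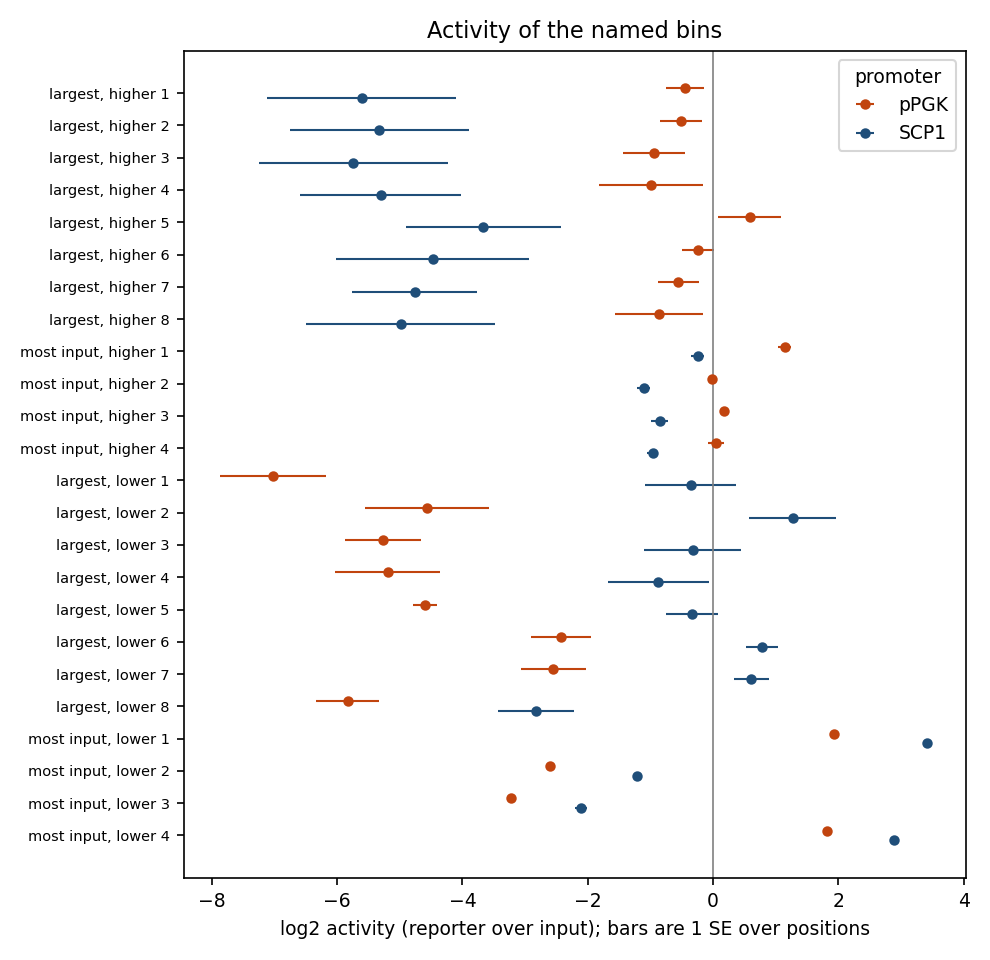
Log2 activity with pPGK and with SCP1 in named bins, the 8 with the largest difference and the 4 with the most input in each direction, with bars of 1 SE over distinct positions. Bins with deep input have short bars and differences of about 1 to 1.5, while the largest differences have bars of up to about 1.5 on the library with few reporter reads.

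Lists of called bins were chosen on the pPGK and SCP1 values, so their activity there is a description; pR-Ea, with its own reporter and input, took no part in the choice. The median log2 activity of the higher bins was 0.25 with pPGK, -0.10 with pR-Ea and -1.19 with SCP1. For the lower bins it was -0.89 with pPGK, -0.20 with pR-Ea and 0.46 with SCP1. The pR-Ea medians were taken over the bins with at least 50 pR-Ea input reads, and those with pPGK and SCP1 over all bins of a list. On these unlike sets the pR-Ea median lay between those of pPGK and SCP1 in either list. Over all 30946 bins with that pR-Ea input it was -0.03, which also lies between them in either list. The lists were chosen for a gap between pPGK and SCP1, so a place within that gap shows nothing particular to pR-Ea. With pR-Ea, 14.6% of the 1736 higher bins and 20.8% of the 1882 lower bins with at least 50 pR-Ea input reads were below input, against 8.35% of all 30946 such bins.

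Bins below input with both pPGK and SCP1 had medians of -1.75 with pPGK, -1.09 with pR-Ea and -1.69 with SCP1. Of the 2272 with enough pR-Ea input, over which the pR-Ea median was taken, 55.2% were below input there too. Bins above input with both had medians of 1.22 with pPGK, 0.45 with pR-Ea (over the 224 with enough pR-Ea input) and 1.57 with SCP1. The pPGK_PMA_I medians were 0.39 in the higher and -0.82 in the lower bins, but that library was divided by the same pPGK input, so a low or high input count moves both.

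Bins were then grouped by pR-Ea activity, a measure that neither the rule nor the calls used. Differences between pPGK and SCP1 were most frequent where pR-Ea activity was lowest. Of the 532 bins at a pR-Ea log2 activity of -2 or less, 13.0% were higher and 26.3% lower with pPGK than with SCP1. From -2 to -1 the shares were 8.96% and 12.2% of 2053 bins. From -1 to 0 they were 5.45% and 5.57% of 13454 bins, and from 0 to 1 they were 5.04% and 4.93%. In the 247 bins at 1 or more they were 4.45% and 8.10%. The 532 bins had medians of 135 pPGK and 83.5 SCP1 reporter reads, against 390 and 425 in all bins. Their median standard error of the difference was 0.60, against 0.40. A median of 20.5% of their pPGK input reads scored below 30, against 1.37%. The part of these values in the calls was not tested.

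Calls were most frequent in the bins with the least input. Where the smaller of the 2 input counts was 50 to 99, 14.3% of 13249 bins were higher and 8.68% lower. At 100 to 199 the shares were 6.87% and 6.05% of 10041 bins, at 200 to 499 they were 2.77% and 4.77% of 8914, from 500 to under 1000 they were 1.37% and 3.18% of 3143, and at 1000 or more they were 0.547% and 4.27% of 1828 bins, that is 10 higher and 78 lower. The share of higher calls was smaller in each deeper class, whereas that of lower calls was smallest from 500 to under 1000 reads. In these classes the excess of higher over lower calls was seen only below 200 input reads. Above it lower calls outnumbered higher ones in each of the 3 depth classes. The smaller count also divides a reporter count in the difference, so the classes are not independent of the calls. Input of pR-Ea entered no call. Of 5 groups of 7435 bins cut on it, the lowest had 17.8% higher and 7.73% lower bins. In the middle group both shares were 6.71%, and in the highest they were 1.18% and 3.98%. The part of the shared count in the calls was not tested. Called bins also had shallow input: the median was 88 pPGK and 141 SCP1 input reads in the higher bins, and 131 and 210 in the lower bins. The median log2 ratio of pPGK to SCP1 input, per used read, was 0.76 in the higher and 0.79 in the lower bins, against 0.16 in all bins; the part of these values in the calls was not tested.

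Activities with pPGK and with SCP1 ranked the bins more alike at greater depth. Spearman's rho between them was 0.53 over all 37175 bins, 0.71 over the 13885 with at least 200 input reads in both files, and 0.85 over those with at least 1000. These are descriptions across bins, which share libraries and are not independent. Around the input minimum itself, the 3891 bins whose smaller count was 50 to 59 had a median difference of 0.19, with 17.7% higher and 9.48% lower. The 5586 bins just outside, at 40 to 49, had a median of 0.25, with 22.3% and 10.2%.

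**Figure D3:**
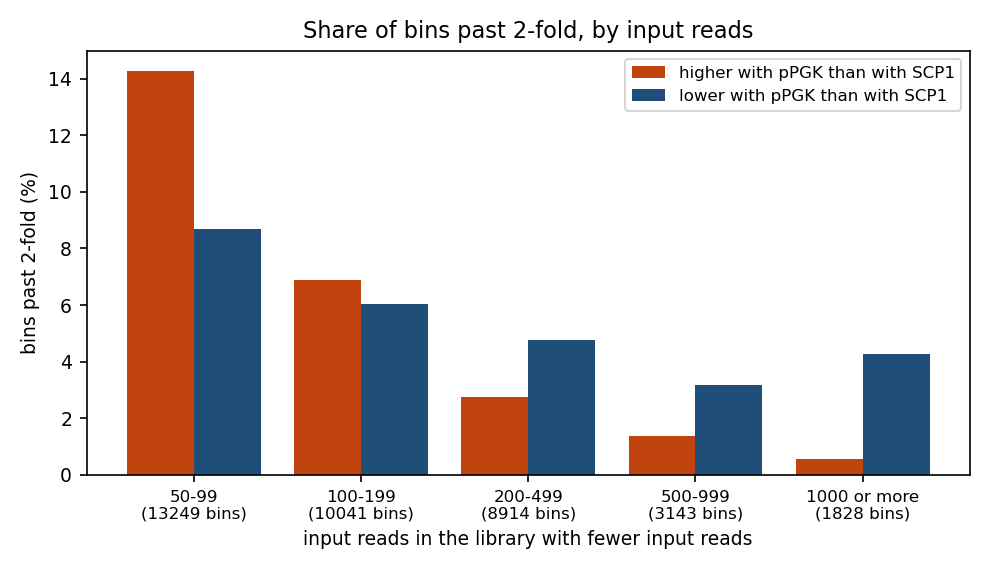
Percent of bins called higher and lower with pPGK than with SCP1, by the smaller input count of the 2 files. The share of higher bins drops to 0.547% at 1000 or more reads, while that of lower bins stays at 3% or more in every class.

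Calls were also more frequent where over 20% of the pPGK input reads were scored below 30. Where at most 5% were, 7.30% of 22998 bins were higher and 5.63% lower. From 5 to 20% the shares were 7.67% and 5.45% of 6078 bins, and from 20 to 50% they were 9.10% and 7.48% of 4705. From 50 to 100% they were 9.10% and 11.3% of 3394 bins. Over all bins the difference had a rho of 0.04 with the percent of pPGK input reads below 30. The part of these positions in the calls was not tested.

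The strands differed between the files. In the 13865 bins with enough input on each strand, Spearman's rho between plus- and minus-strand activity was 0.15 with pPGK and 0.88 with SCP1. The standard deviation of the strand difference in log2 activity was 1.06 with pPGK and 0.38 with SCP1. Between pPGK and SCP1 activity, rho in the same bins was 0.51 on the plus strand, 0.50 on the minus strand and 0.66 with both strands together. The difference between the promoters on the plus strand had a rho of 0.03 with that on the minus strand. Of 540 bins higher on the plus strand, 19.1% were also higher on the minus strand, against 4.65% of all these bins; of 1842 lower on the plus strand, 7.60% were also lower on the minus strand, against 13.8% of all. A lower call on the plus strand thus went with a lower call on the minus strand less often than the rate over all bins. Of the 304 higher and 432 lower bins called on both strands' reads together, 96 and 134 passed the threshold on each strand. Positions listed on both strands carried equal counts in both files, and whether fragments were read from both ends is not given in the sources used here.

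**Figure D4:**
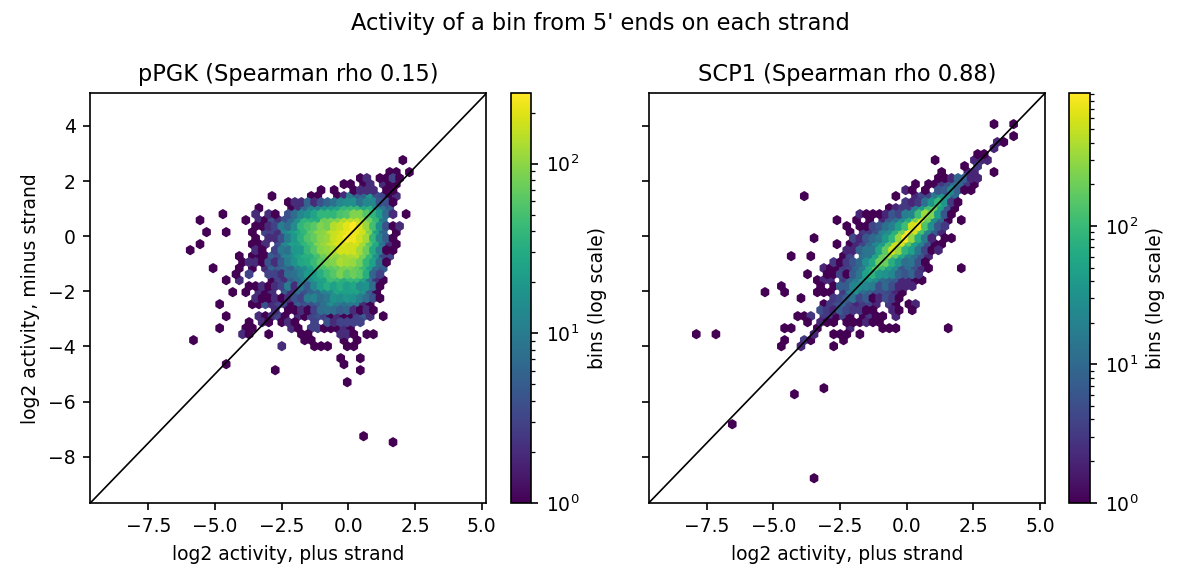
Log2 activity on the plus strand against the minus strand in 13865 bins, with pPGK in the left panel and SCP1 in the right. The SCP1 bins follow the diagonal (rho 0.88) and the pPGK bins do not (rho 0.15).

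Calls clustered along the genome. Over 10787 pairs of touching bins the difference had a rho of 0.22 between neighbours, whose fragments can overlap. After a higher bin, 12.2% of the next bins were higher, against 4.51% of all next bins, and after a lower bin 18.3% were lower, against 6.62%. At least 3 touching bins were called in the same direction at 6 places, of which 5 were lower. The longest was 6 bins at chromosome 11, 82744001 to 82747000, with differences from -2.33 to -1.03. Over it pPGK gave 28742 reporter and 20295 input reads (log2 activity -0.93), SCP1 gave 14999 and 8826 (0.48), and pR-Ea stood at 0.57. The largest differences in such a run, -3.40 to -2.31, were at chromosome 18, 32859001 to 32860500, where log2 activity was -4.43 with pPGK, -2.02 with pR-Ea and -1.22 with SCP1. The single higher run was at chromosome 6, 136362501 to 136364000, with log2 activity of 0.13 with pPGK and -1.35 with SCP1. Low-scoring positions held up to 66.7%, 91.5% and 88.9% of the pPGK input reads in a bin of these 3 runs.

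Called bins lay on all autosomes and on X. Higher bins made up between 6.13% of the bins on chromosome 19 and 10.0% on chromosome 16. Lower bins made up between 4.76% on chromosome 3 and 8.19% on X.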

How the data were processed

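CapStarr-seq reads of P5424 cells were aligned to mm9 by the authors, with Bowtie2, SAMtools and bedtools 2.28.0 named in the submitters' processing notes; the sources used here do not give their settings. Each deposited file lists fragment positions with a mapping quality score and, in 2 columns, a count of reads; the deposited counts are raw. No label says which count column is the reporter and which the input: the first was taken as reporter and the second as input, from their values. A 5′ end listed on both strands was counted once. Reads at a score of at least 30 were placed into 500 bp bins by the midpoint of the listed fragment, and totals were the used reads of each library. Log2 activity used a pseudocount of 1 read; a call was a log2 difference of at least 1 in size, and standard errors are linearised ratio errors over distinct positions. With 1 library per group no test was made. The computation was tested on simulated data and run in Python 3.11.15 with pandas 2.3.3, NumPy 2.4.6 and SciPy 1.17.1; figures used matplotlib 3.10.9.

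The bins, groupings and naming rule were chosen with earlier results of these data known. Named were 52 bins: per direction, among called bins with at least 10 input positions in each file, 50 reporter reads in the library with higher activity, the same direction on each strand and without the position with most reads, and an interval that excludes equality, the 8 with the largest difference and the 4 with the most input; the 3 largest in each class of activity; and the 3 most alike above input with both. Genes are not named, since the gene table given is of GRCm38.p6. Coordinates are mm9, counted from 1. Alternatives were the input minimum, scaling, pseudocount, score filter, counting of fragments and positions, bin size and offset, strand and threshold.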

Additional observations from a re-analysis of the deposited data

Results flagged for a closer look

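Activity lay on opposite sides of input with the promoters in 17 bins above with pPGK and below with SCP1, and in 17 bins below with pPGK and above with SCP1. The log2 differences of those named were 2.31 at chromosome X, 70917501, 3.01 at chromosome 11, 115560001, and 3.32 at chromosome 1, 195208501. In the opposite direction they were -5.84 at chromosome 6, 99511501, -2.74 at chromosome 15, 102301001, and -2.59 at chromosome 4, 128307001. They drew attention because the effects ran in opposite directions; these differences were not tested, since each promoter had 1 library.

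Outside the compared bins lay 40.1% of the used pPGK reporter reads and 32.6% of the used pPGK input reads. With SCP1 the shares were 33.4% of the reporter and 36.1% of the input. The pPGK reporter share was above its input share in data that the comparison does not use.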

How the results depend on the processing

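No paired analysis was possible because each promoter had 1 library. Against 2881 higher and 2360 lower bins, counts moved by over 1.5 times in both directions with at least 20 input reads (11572 and 5963), with at least 200 (300 and 603), scaled to reads in kept bins (4613 and 1408), with distinct positions in place of reads (1510 and 1455), with positions that had input in both files (1686 and 605), at 1.5-fold (6668 and 6584) and, added after seeing the data, in bins with at most 5% of pPGK input reads below 30 (1678 and 1294). The higher count but not the lower moved so with no score filter (4350 and 2054) and without the position with most reads (4430 and 2161). It did so too on the plus strand (1312 and 2728) and on the minus strand (1406 and 2883), where fewer bins entered. As shares of bins, the lower calls moved more on each strand. On the plus strand 6.10% of 21509 bins were higher and 12.7% lower. On the minus strand the shares were 6.54% and 13.4% of 21513 bins, against 7.75% and 6.35% in the main setting. The majority turned to lower bins on either strand, with at least 200 input reads, with a pseudocount of 10 reads (2142 and 2512) and in 250 bp bins (3094 and 3280). The number of bins differed between these settings, so counts and shares of bins can move unlike. With at least 20 input reads, 17.1% of 67807 bins were higher and 8.79% lower. With at least 200 the shares were 2.16% and 4.34% of 13885 bins. For positions with input in both files they were 15.1% and 5.42% of 11170 bins. In bins with at most 5% of pPGK input reads below 30 they were 7.30% and 5.63% of 22998, close to the main shares. The cause of these changes was not tested. Several alternatives could not change a named bin, since they select bins or were conditions for naming. With distinct positions in place of reads, which do not grow with more reads at a counted position, 31 of the 52 named bins kept direction and side of the threshold. Another 16 kept direction only and 5 turned round. Those 5 were at chromosome 12, 37392001 (-0.293), chromosome 1, 172773501 (-0.056), chromosome 8, 91410001 (-0.072), chromosome 9, 108729001 (0.13) and chromosome 4, 57826001 (0.63). With positions that had input in both files, the bin at chromosome 9, 108729001, turned round (1.28).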

Other observations

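With 1 library per promoter, the promoter cannot be told apart from the culture, transfection or library. Intervals cover counting error or the spread over positions, and reads without molecular identifiers are not independent molecules. A bin at 50 input reads has a counting error far larger than one at 1000, and most called bins were shallow. Of the kept bins, 80 lie outside chromosomes 1 to 19, X and Y, and regions covered in 1 file only are not described. The low agreement of strands with pPGK touches every pPGK value given. In the 13865 bins compared by strand, pPGK and SCP1 activity had a rho of 0.66 with both strands together.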
